A study of Macaca fascicularis with 21 samples.

Results

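Bone morphogenetic protein 4 (BMP4) and 3 genes known to respond to BMP signals, BAMBI, ID2 and ID3, were followed across all annotated cell types and all days of cultured cynomolgus monkey (Macaca fascicularis) embryos. They are 4 of the 30792 genes in the deposited count table. They are named by symbol and not by a threshold on measured values, though they were proposed with earlier results of these data known. All 4 stood under their own names in the table.

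BMP4 is a secreted ligand that binds paired type I and type II receptors on the receiving cell. The activated receptors phosphorylate SMAD1, SMAD5 and SMAD9, which enter the nucleus with SMAD4 and switch on target genes, the ID genes among them. ID proteins lack a DNA-binding region and hold back the transcription factors they pair with, while BAMBI is a pseudoreceptor without kinase activity that dampens BMP and related signals. In the mouse, BMP4 from extraembryonic tissue is needed for mesoderm and for primordial germ cells, and in the cynomolgus monkey the amnion has been described as a site of BMP4 expression.

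Each blastocyst, its zona pellucida taken off, grew alone on a Matrigel coat (an extract of basement membrane) while the serum was raised, and cells of the attachment site were picked by hand for RNA sequencing of transcript 3′ ends. Each of the 21 samples is 1 untreated embryo, with 2, 5, 3, 4, 4 and 3 embryos at labelled days 11, 12, 13, 14, 16 and 17. The day is labelled as a culture stage in 5 embryos (replicate 1 of day 12 and replicates 1 and 2 of days 13 and 17) and as a developmental stage in 16, and no source used here says whether these scales start together. Extra-embryonic cells were cut away before digestion, so shares of types describe the picked cells and not whole embryos.

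The authors' 12 labels for the 1453 cells were read as 7 families. These were amnion (AM, 82 cells with labels E-AM, L-AM1 and L-AM2), extraembryonic mesenchyme (EXMC, 485), gastrulating cells (Gast, 83 with labels E-Gast, L-Gast1 and L-Gast2), primordial germ cells (PGC, 18, all at day 16), visceral or yolk sac endoderm (VE/YE, 101), trophoblast (TE, 380) and epiblast (EPI, 304). An embryo gave 22 to 88 cells and 2540816 to 11857191 counts, and the median cell held 61090.0 counts. Of the markers listed for each family, the number highest in their own family was 5 of 7 for AM, 4 of 6 for EXMC, 1 of 6 for Gast (MESP1), 5 of 5 for PGC, 7 of 8 for VE/YE, 6 of 6 for TE and 3 of 6 for EPI. The streak marker SNAI2 was at 0 in every Gast sum. The authors named the types from the expression of these same cells, so a difference between types describes the annotation and is not independent of it.

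The first question was which types hold the ligand transcript. BMP4 was high in amnion, extraembryonic mesenchyme and the gastrulating cells of day 16, and low in epiblast and trophoblast. Levels are given as counts per 1000000 (CPM) of the counts summed over all cells of 1 embryo and family, for sums of at least 5 cells. In such sums, more cells with the transcript and more transcript per cell cannot be told apart.

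AM sums had 109 CPM of BMP4 at the lowest, 172 at the median and 364 at the highest (6 embryos), and EXMC sums had 33.5, 81.0 and 283 CPM (19 embryos). Gast sums had 16.2 and 45.1 CPM at day 14 and 402, 482, 194 and 69.7 CPM in day 16 replicates 1 to 4. PGC sums had 49.1, 53.5 and 10.1 CPM in day 16 replicates 2, 3 and 4, from 26, 55 and 1 counts. The Gast values of day 14 lay below every AM value, and PGC replicate 4 stood below the other PGC sums. VE/YE sums ran from 0 to 90.8 CPM with a median of 12.5 (9 embryos), TE sums from 0 to 34.3 with a median of 6.67 (16 embryos), and EPI sums from 0 to 53.2 with a median of 9.47 (14 embryos). No AM sum overlapped the EPI or TE range, while the lowest EXMC and Gast sums lay inside the EPI range, whose highest values, 53.2 and 28.2 CPM, were both from day 17. By label, in sums of at least 3 cells, E-AM ran from 7.15 to 316 CPM with a median of 124 (5 embryos). L-AM1 ran from 4.24 to 204 CPM (3 embryos) and L-AM2 from 243 to 423 (4 embryos). The lowest E-AM and L-AM1 values lay inside the EPI and TE ranges.

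**Figure D1:**
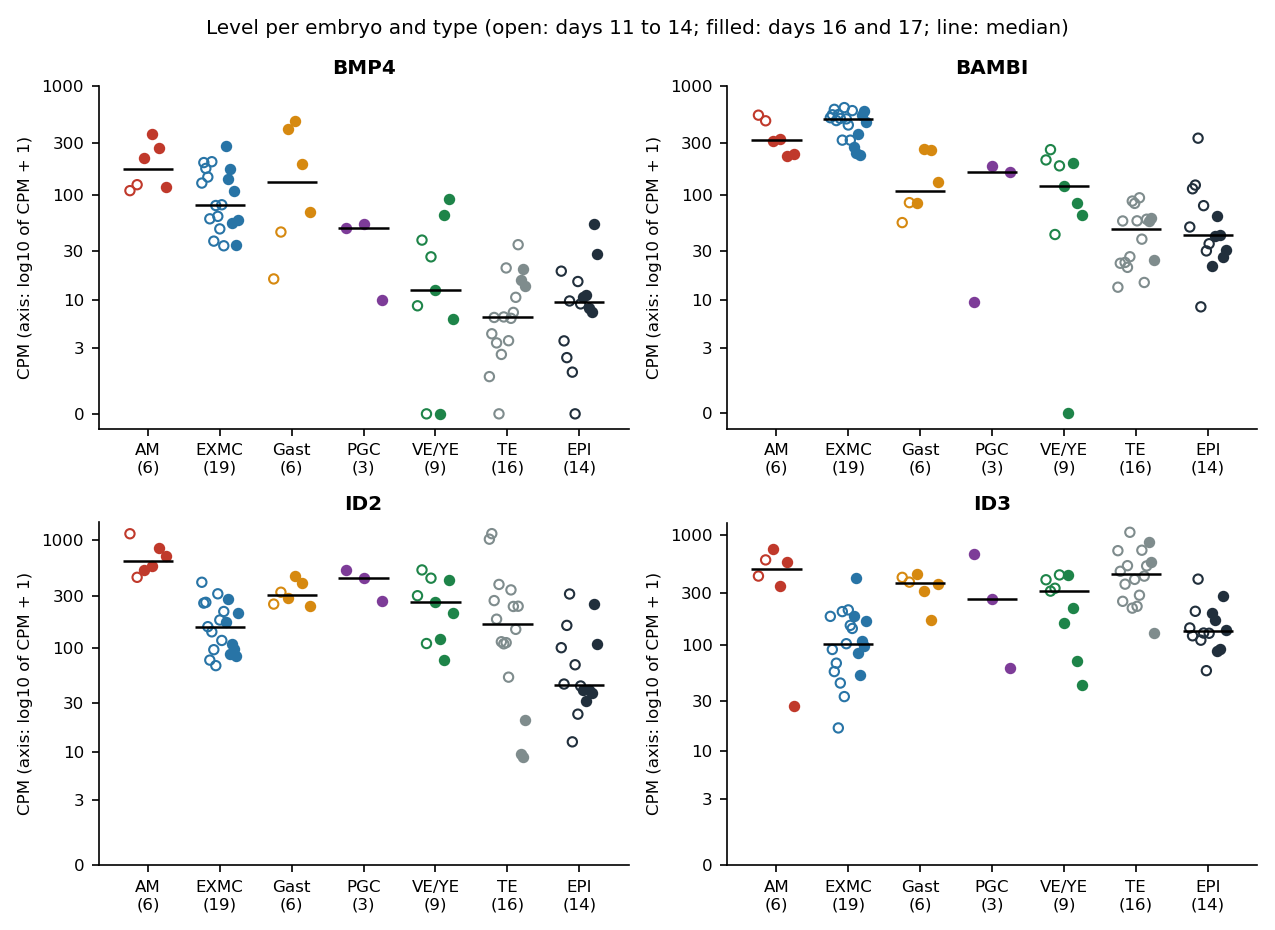
CPM of BMP4, BAMBI, ID2 and ID3 in each sum of 1 embryo and family, with open points for days 11 to 14, filled points for days 16 and 17, a line at the median and the number of embryos in brackets. Median BMP4 was 172 CPM in AM and 81.0 in EXMC, and 9.47 in EPI, whereas median ID3 was 102 in EXMC, 446 in TE and 133 in EPI.

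Families were compared within embryos by edgeR's quasi-likelihood test with the embryo as a block and Benjamini-Hochberg adjustment over all genes tested, called at an adjusted p under 0.05. All comparisons with EPI share the EPI sums, so their values stand side by side and do not support each other. BMP4 averaged 201 ± 103 CPM in AM and 8.32 ± 3.30 in EPI (SD, n = 6 embryos), a log2 difference of 4.53 ± 0.37 (SE, edgeR adjusted p = 1.22e-06), higher in 6 of 6 embryos. It averaged 124 ± 73.0 CPM in EXMC and 12.7 ± 14.4 in EPI (SD, n = 13), a log2 difference of 3.45 ± 0.48 (edgeR adjusted p = 2.33e-05), higher in 13 of 13. Both calls held in every alternative tried. In Gast the mean was 201 ± 197 CPM and in EPI 10.4 ± 2.80 (n = 6), higher in 6 of 6 embryos, with a log2 difference of 3.67 ± 0.76 that missed the threshold (edgeR adjusted p = 0.0753). It passed without the embryo block (4.13, edgeR adjusted p = 0.00181) and in days 16 and 17 alone (4.70, 3.89e-05). It also passed by DESeq2 (3.69, DESeq2 adjusted p = 3.19e-10). By edgeR it passed in a joint fit of all families (3.49, 0.00208) and with at least 3 cells in a sum (3.58, 0.0429). It missed with DESeq2 size factors (edgeR adjusted p = 0.0775), developmental stage labels only (0.0753), no filter on low counts (0.234) and at least 10 cells (0.116). Without day 14 replicate 2 it also passed (4.25, edgeR adjusted p = 0.000763), and leaving out each of the 6 embryos gave adjusted p from 0.000763 to 0.263. PGC and TE differed from EPI by 1.84 ± 1.26 and -0.38 ± 0.65 on the log2 scale, with edgeR adjusted p of 0.584 and 0.660. VE/YE had too few counts of BMP4 to be tested against EPI.

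Among all genes tested, 5.12% were called between AM and EPI, 34.8% between EXMC and EPI, 1.01% between Gast and EPI, 3.93% between PGC and EPI, 23.2% between VE/YE and EPI and 46.8% between TE and EPI. Of the 4 genes, 3 were called in AM (BMP4, BAMBI and ID2), 4 in EXMC, 3 in Gast (BAMBI, ID2 and ID3), 1 in PGC (ID2), 1 of 3 tested in VE/YE (ID2) and 1 in TE (ID3). The shares for EXMC, VE/YE and TE are a high background for such counts.

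Beside the BMP4 differences, the summed level of 6 EXMC markers was 383 to 1592 CPM in AM, 38.8 to 1413 in Gast, 1370.0 to 10359 in EXMC and 10.8 to 463 in EPI. One of them, POSTN, which encodes the matrix protein periostin, averaged 14.8 CPM in AM, 15.1 in Gast, 514 in EXMC and 11.1 in EPI, while HAND1 averaged 613 CPM in AM and 206 in EXMC. The part of these markers in the BMP4 differences was not tested.

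Between the types with most BMP4 the order was not resolved. AM minus EXMC was 0.33 ± 0.31 on the log2 scale (edgeR adjusted p = 0.666, higher in 3 of 6 embryos), and AM minus Gast was -0.04 ± 0.33 (0.985). EXMC minus Gast was -0.63 ± 0.29 (0.340) and EXMC minus PGC 1.81 ± 0.74 (0.167). AM exceeded PGC by 2.85 ± 0.69 (edgeR adjusted p = 0.00290) and VE/YE by 3.18 ± 0.80 (0.0273), and Gast exceeded PGC by 2.62 ± 0.62 (0.0123). EXMC exceeded VE/YE by 2.77 ± 0.64 (0.00899) and TE by 3.57 ± 0.61 (1.84e-04), with means of 99.3 CPM in EXMC and 10.6 in TE, higher in 13 of 14 embryos. The AM call over VE/YE was lost without day 12 replicate 2 (2.88, 0.0549), or without day 16 replicate 1 (2.91, 0.139), 2 (2.58, 0.0693) or 3 (3.77, 0.0592). The calls of AM and Gast over PGC rest on 3 embryos, of which day 16 replicate 4 held 1 BMP4 count in PGC. Both calls were lost without the embryo block (2.32 in both, with adjusted p of 0.103 and 0.440). The call of EXMC over TE was lost in days 16 and 17 alone (1.75, 0.0791). The call of EXMC over VE/YE was lost in sums of at least 10 cells (2.81, 0.323) and in days 16 and 17 alone (2.66, 0.0899).

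The share of all genes tested that was called was 2.68% for AM minus PGC (1 of the 4 genes called), 5.85% for AM minus VE/YE (2), 5.29% for EXMC minus PGC (2), 13.2% for EXMC minus VE/YE (2), 1.36% for Gast minus PGC (1) and 11.6% for VE/YE minus TE (1 of 3 tested). In the main edgeR fits none of the 4 genes was called in AM minus Gast (0.807% of all genes), EXMC minus Gast (2.61%), Gast minus VE/YE (4.16%) or PGC minus VE/YE (4.31%). Without a filter on low counts, edgeR called BAMBI (adjusted p = 0.00805), ID2 (0.0163) and ID3 (0.00610) in EXMC minus Gast. Without the embryo block it called the same 3 genes (0.000326, 0.0162 and 0.00617). ID3 also passed there in the joint fit (0.0211) and with at least 3 cells in a sum (0.0479). ID2 passed in AM minus Gast without the filter (0.0246), and BMP4 in Gast minus VE/YE in the joint fit (0.0381). In the main edgeR fits of these 4 comparisons an unadjusted p under 0.05 was found for 1, 3, 0 and 1 of the 4 genes. Over all genes tested it was found for 945 of 9042, 1447 of 9507, 1228 of 7973 and 816 of 6775. DESeq2 called 0, 2, 0 and 0 of the 4 genes, ID2 and ID3 in EXMC minus Gast. No DESeq2 share over all genes is given beside these counts.

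A share of single cells with a BMP4 count was taken after thinning each cell to 20000 counts, leaving out shallower cells (22 AM, 103 EXMC, 17 Gast, 5 PGC, 32 VE/YE, 64 TE and 57 EPI). It was 75.0% in AM (79.3% unthinned), 53.7% in EXMC (63.1%), 57.6% in Gast (56.6%), 38.5% in PGC (38.9%), 15.9% in VE/YE (23.8%), 8.23% in TE (18.9%) and 18.2% in EPI (30.3%). The median total of the thinned cells before thinning was 79197 in AM, 86201 in EXMC, 89320 in TE and 100801 in EPI.

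The contribution of a type also depends on how many of its cells were picked. Summing the CPM of all picked cells of a day, EXMC held 71.3, 49.3, 39.7, 65.1, 35.8 and 80.5% of BMP4 at days 11, 12, 13, 14, 16 and 17, while making up 14.9, 18.1, 27.8, 40.4, 25.6 and 67.8% of the cells. AM held 15.6, 36.7, 24.7, 14.3, 28.1 and 8.25% with 1.3, 6.43, 4.94, 2.48, 12.5 and 2.61% of the cells. On all 6 days both families held a larger share of the transcript than of the cells. Gast held 27.6% at day 16 with 14.0% of the cells. At day 11, TE made up 58.4% of the cells and held 4.19% of BMP4. These shares pool the embryos of a day and carry no replicate error, and AM was 2 cells at day 11 and 42 at day 16.

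**Figure D2:**
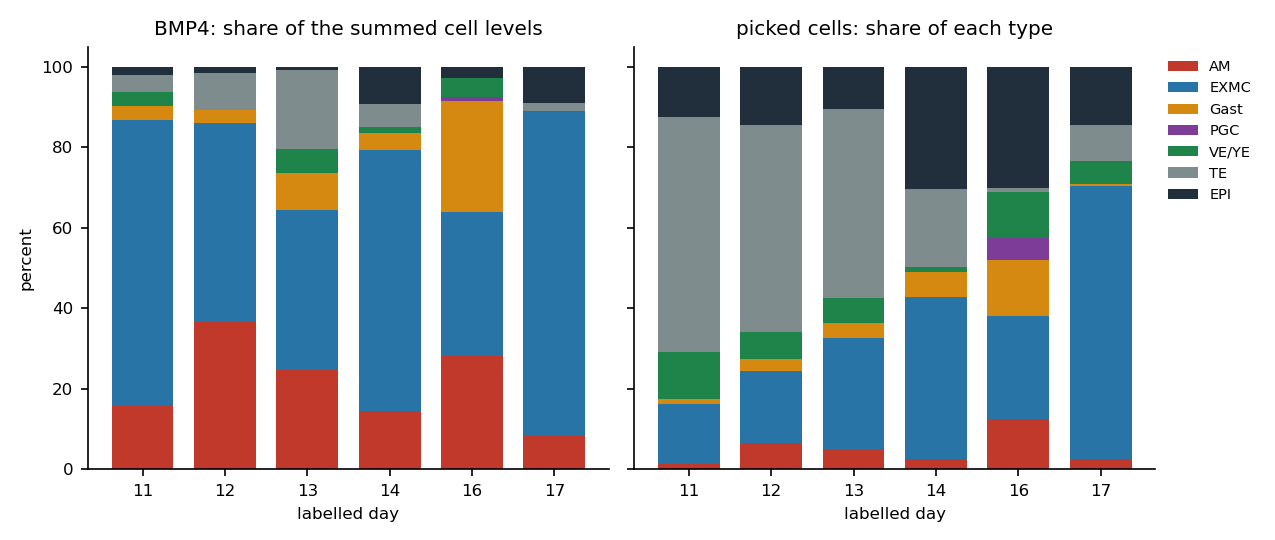
Left, share in percent of the summed single-cell CPM of BMP4 held by each family on each day; right, share in percent of the picked cells. At day 11 EXMC held 71.3% of BMP4 with 14.9% of the cells, and TE held 4.19% with 58.4%.

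BAMBI, the pseudoreceptor, was high in EXMC and AM and low in TE. EXMC sums had 232 CPM at the lowest, 499 at the median and 633 at the highest, AM sums 227, 319 and 540, and Gast sums 55.0, 108 and 266. PGC sums had 9.44, 184 and 162 CPM in day 16 replicates 2, 3 and 4. VE/YE sums ran from 0 to 260 CPM with a median of 119.9, TE sums from 13.3 to 93.5 with a median of 47.7, and EPI sums from 8.45 to 332 with a median of 41.7. Every EXMC and AM sum exceeded every TE sum, whereas the highest EPI sum lay within the EXMC and AM ranges.

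BAMBI averaged 474 CPM in EXMC and 74.2 in EPI, a log2 difference of 3.10 ± 0.35 (edgeR adjusted p = 7.73e-06, higher in 13 of 13 embryos). It averaged 353 CPM in AM and 104 in EPI, a difference of 2.34 ± 0.35 (0.000614, 6 of 6). In Gast it averaged 146 CPM and in EPI 38.8, a difference of 1.79 ± 0.29 (0.0102, 6 of 6). The Gast call was lost without day 16 replicate 2 (1.62, edgeR adjusted p = 0.0649) or replicate 3 (1.75, 0.0731), while those of EXMC and AM held in every alternative. PGC, VE/YE and TE differed from EPI by 0.55, 0.73 and -0.36 on the log2 scale, with edgeR adjusted p of 0.863, 0.517 and 0.577. EXMC exceeded TE by 3.66 ± 0.25 (5.72e-09, 14 of 14 embryos), VE/YE by 1.92 ± 0.41 (0.00569) and PGC by 1.90 ± 0.50 (0.00525), and did not separate from AM (AM minus EXMC -0.02 ± 0.20, 0.976). The call over VE/YE was lost in sums of at least 10 cells (1.38, 0.0821), and that over PGC in a joint fit of all families (2.21, 0.0708). VE/YE exceeded TE by 2.52 ± 0.63 (0.0337), a call lost without day 11 replicate 1 (1.93, 0.209) or 2 (2.08, 0.228).

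ID2, an inhibitor of helix-loop-helix transcription factors, had its lowest median in epiblast and its highest in amnion. AM sums had 449 CPM at the lowest, 641 at the median and 1134 at the highest, and Gast sums 243, 307 and 464. PGC sums had 521, 444 and 273 CPM in day 16 replicates 2, 3 and 4. The medians were 268 CPM in VE/YE, 166 in TE, 157 in EXMC and 44.7 in EPI, with ranges of 76.9 to 526, 9.00 to 1137, 68.0 to 404 and 12.7 to 315. Every AM sum exceeded every EPI sum, and TE had the widest range of the 7 families.

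ID2 averaged 706 CPM in AM and 104 in EPI, a log2 difference of 3.43 ± 0.51 (edgeR adjusted p = 0.00364, higher in 6 of 6 embryos). In Gast it averaged 329 CPM and in EPI 36.2, a difference of 3.21 ± 0.21 (5.06e-06, 6 of 6), and in PGC 413 and in EPI 36.4, a difference of 3.35 ± 0.46 (9.73e-11, 3 of 3). VE/YE exceeded EPI by 1.90 ± 0.53 (0.0211, 6 of 7 embryos) and EXMC exceeded EPI by 1.15 ± 0.38 (0.0261, 9 of 13). The EXMC call was lost without day 11 replicate 1 (1.06, 0.0558) or 2 (1.03, 0.0575) or day 14 replicate 4 (1.02, 0.0593), and the VE/YE call without day 11 replicate 2 (1.60, 0.0522) or day 16 replicate 1 (1.74, 0.0639), 2 (1.89, 0.0548) or 4 (1.59, 0.0636). TE minus EPI was 1.38 ± 1.1 (0.331, higher in 6 of 10), and its side of the threshold depended on the setting. For instance, it passed in the embryos of days 11 to 14 (2.34, 0.0147), and the other settings are not listed here. Although AM and EXMC did not separate in BMP4 or BAMBI, ID2 averaged 706 CPM in AM and 179 in EXMC of the same embryos, a difference of 2.05 ± 0.28 (edgeR adjusted p = 1.97e-04, 6 of 6). Between AM and EXMC, 7.03% of all genes tested were called, and by edgeR ID2 was the 1 gene called of the 4. ID3 averaged 451 CPM in AM and 142 in EXMC, a difference of 1.73 ± 0.60 that missed the threshold by edgeR (adjusted p = 0.149, higher in 4 of 6) and passed by DESeq2 (0.00346). By edgeR it also passed without a filter on low counts (1.06e-05), without the embryo block (0.00448), in the joint fit (0.00907), and without day 16 replicate 2 (0.0338) or 4 (0.0473), with adjusted p up to 0.479 under the other settings.

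ID3, a close relative of ID2, had another order, with trophoblast near the top and EXMC at the bottom. Its medians were 494 CPM in AM, 446 in TE, 365 in Gast, 309 in VE/YE, 262 in PGC, 102 in EXMC and 133 in EPI. The ranges were 26.7 to 748 in AM, 129 to 1061 in TE, 169 to 446 in Gast, 42.1 to 436 in VE/YE, 60.6 to 668 in PGC, 16.7 to 407 in EXMC and 57.6 to 397 in EPI. All ranges overlapped, and the lowest AM and PGC values were both from day 16 replicate 4.

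ID3 averaged 523 CPM in TE and 170.2 in EPI, a log2 difference of 1.81 ± 0.32 (edgeR adjusted p = 4.07e-04, higher in 9 of 10 embryos), which held in every alternative. Gast averaged 344 CPM and EPI 122, a difference of 1.59 ± 0.24 (0.00729, 6 of 6). EXMC averaged 117 CPM and EPI 168, a difference of -0.75 ± 0.29 just under the threshold (0.0496, lower in 10 of 13). That call was lost without any 1 embryo other than day 11 replicate 1, day 14 replicate 4 and day 16 replicate 2 (adjusted p up to 0.133). AM minus EPI was 1.06 ± 0.43 (0.205, higher in 5 of 6) and passed without day 16 replicate 4 (1.47, 0.00571, with 0.00571 to 0.404 over the 6 embryos left out). By edgeR it also passed without a filter on low counts (0.98, 0.00961), in sums of at least 10 cells (1.87, 0.0107) and without the embryo block (1.56, 0.0112). Under the other settings tried it missed the threshold. EXMC was below TE by a log2 difference of -1.98 ± 0.31 (6.80e-05, lower in 13 of 14), with means of 112 CPM in EXMC and 425 in TE, a call lost in days 16 and 17 alone (-1.97, 0.331). The share of all genes tested that was called between EXMC and TE was 38.7%, and 3 of the 4 genes were called, BMP4 and BAMBI higher and ID3 lower in EXMC.

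The labels split late gastrulating cells and late amnion at day 16, and BMP4 divided the L-Gast labels. In sums of at least 3 cells, L-Gast2 had 710, 641, 248 and 78.1 CPM of BMP4 in replicates 1 to 4, against 0, 0, 3.70 and 16.2 CPM in L-Gast1. Every L-Gast2 sum exceeded every L-Gast1 sum. In counts, 33 L-Gast2 cells held 1242 and 14 L-Gast1 cells held 4. The log2 difference was 6.51 ± 0.92 (edgeR adjusted p = 0.000392, higher in 4 of 4 embryos), and 5.48 (5.95e-04) without replicate 1. After thinning, cells of all days were counted, and each label also had 1 cell at day 13. A BMP4 count was found in 27 of 29 L-Gast2 cells (93.1%, exact binomial 95% interval 77.2 to 99.2%) and 2 of 14 L-Gast1 cells (14.3%, 1.78 to 42.8%). These intervals cover counting error only. Of all genes tested, 2.44% were called, and BMP4 was the 1 gene called of the 4.

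BAMBI had 115, 353, 297 and 147 CPM in L-Gast2, against 44.3, 0, 118 and 32.5 CPM in L-Gast1 (log2 difference 2.32 ± 0.71, edgeR adjusted p = 0.0919 and DESeq2 adjusted p = 0.0145, higher in 4 of 4). ID3 had 355, 139.8, 137 and 329 CPM in L-Gast2, against 563, 823, 283 and 527 CPM in L-Gast1 (-1.23 ± 0.39, 0.0980, lower in 4 of 4). ID2 differed by 0.71 ± 0.43 (0.604). Thus ID3 was lower in each embryo in the label with more BMP4, though the difference passed the test only without replicate 4 (-1.50, edgeR adjusted p = 0.0244). Of the other pathway genes, ID1, another ID gene, was lower in L-Gast2 (125 CPM, and 371 in L-Gast1, -1.75 ± 0.46, 0.0315). The ligand BMP2 (139 CPM in L-Gast2 and 0.463 in L-Gast1, 7.47 ± 1.22, 4.13e-04) and the secreted modulator BMPER (503 and 12.5 CPM, 5.69 ± 0.99, 0.0165) were higher. Markers moved with these labels. The 6 EXMC markers summed to 722 to 1837 CPM in L-Gast2 and 39.3 to 268 in L-Gast1, the 7 AM markers to 93.5 to 345 and 9.84 to 58.8, and the 6 EPI markers to 233 to 593 and 1323 to 1967. The AM markers ISL1, GABRP and WNT6 were at 0 in L-Gast1, and the part of these lists in the BMP4 difference was not tested.

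Late amnion gave no call. BMP4 had 272, 423, 394 and 243 CPM in L-AM2 in replicates 1 to 4, against 204, 143 and 4.24 CPM in L-AM1 in replicates 1, 3 and 4. In the 3 embryos with both labels the log2 difference was 1.96 ± 0.93 (edgeR adjusted p = 0.689, higher in 3 of 3), that of BAMBI 1.34 ± 0.58 (0.633), that of ID2 1.68 ± 0.45 (0.280) and that of ID3 -0.33 ± 0.66 (0.945). None of the 4 genes was called by the main edgeR fit or by DESeq2, and 0.0882% of all genes tested were called by that edgeR fit. Its unadjusted p was under 0.05 for 2 of the 4 genes, and for 496 of the 6803 genes tested. Without a filter on low counts ID2 passed (1.67, edgeR adjusted p = 0.0301). For ID2 in replicate 1, the summed counts gave 880 CPM in L-AM2 and 417 in L-AM1, whereas the mean over cells was 321 CPM in L-AM2 and 343 in L-AM1, so the order of the labels there depended on how the cells were weighted. The AM markers summed to 1110.1 to 1699 CPM in L-AM2 and 80.5 to 388 in L-AM1.

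**Figure D3:**
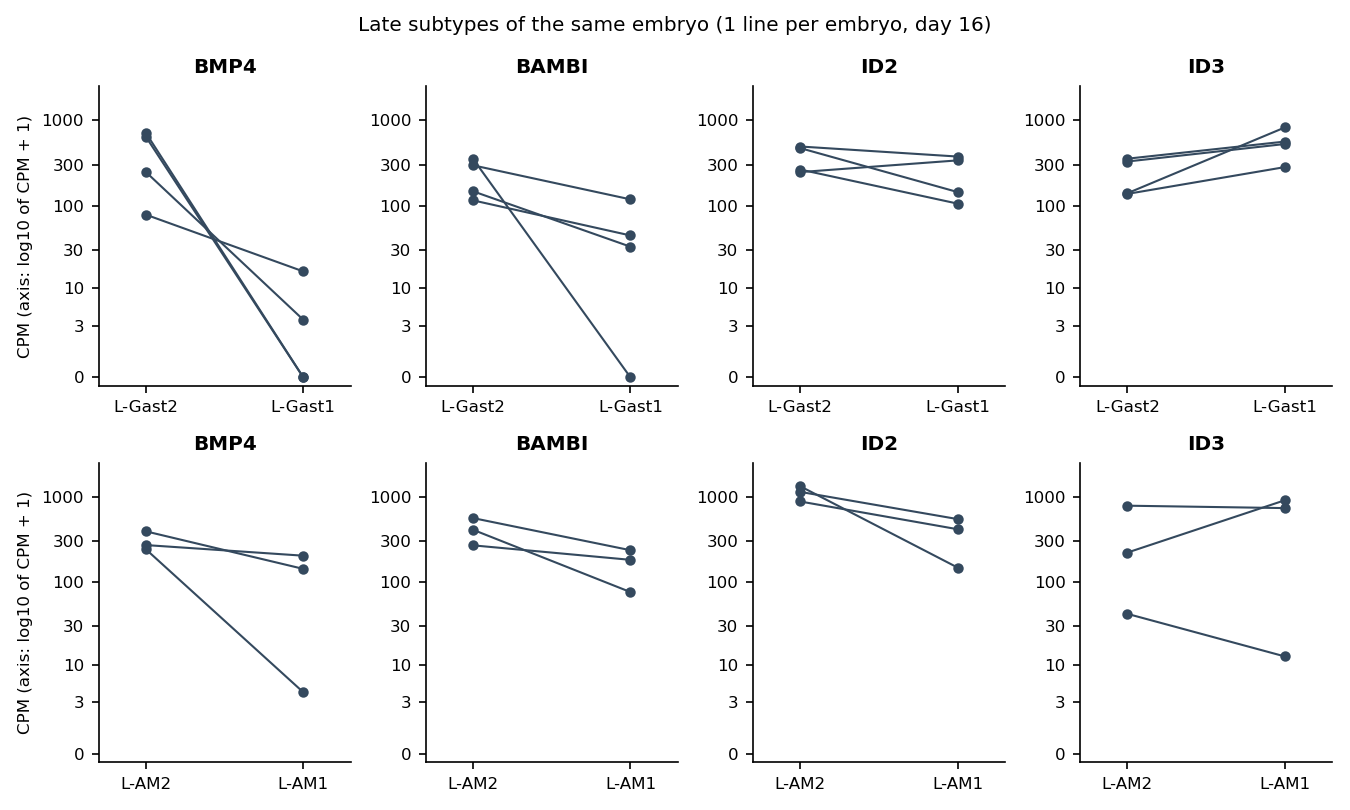
CPM of the 4 genes (axis on log10 of CPM + 1) in L-Gast2 and L-Gast1, and in L-AM2 and L-AM1, at day 16, with a line joining the sums of 1 embryo that has both labels. BMP4 was 78.1 to 710 CPM in L-Gast2 and 0 to 16.2 in L-Gast1.

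Across days within a family, ID2 in trophoblast was the single call of the main edgeR fits. DESeq2 called 2 of the 4 genes there, ID2 and BMP4, and no DESeq2 share over all genes is given beside it. TE had 1011 and 1137 CPM of ID2 at day 11, 109 to 386 at day 12, 111 and 53.0 at day 13, 148 to 344 at day 14, and 9.49, 9.00 and 20.9 at day 17. The day 17 values came from 9, 9 and 6 counts in 10, 6 and 5 cells, and all 3 lay below every earlier sum. No TE sum reached 5 cells at day 16, where 3 cells of 3 embryos together held 48 counts of ID2, 382 CPM, above every day 14 sum. The slope was -0.84 ± 0.16 log2 units per day (edgeR adjusted p = 0.00357), with 14.9% of all genes tested called. It was -0.67 (0.0704) among embryos with developmental stage labels and -0.73 (0.0819) in sums of at least 10 cells. At day 17 the 6 TE markers summed to 738 to 867 CPM in these cells, against 6643 to 18151 at days 11 to 14, and the EXMC markers to 216 to 755, against 27.5 to 447. The part of these markers in the ID2 slope was not tested. Tested over families, the change of ID2 with day differed (edgeR adjusted p = 0.0446), with 5.7% of all genes tested called.

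BMP4 slopes per day were 0.30 ± 0.15 in EPI (edgeR adjusted p = 0.285), 0.46 ± 0.18 in TE (0.0813), 0.31 ± 0.13 in AM (0.351) and 1.66 ± 0.38 in Gast (0.0771). By DESeq2 those of TE (0.48, DESeq2 adjusted p = 0.0113) and Gast (1.67, 0.000198) passed, and those of EPI and AM did not. In EXMC the 4 slopes ran from -0.11 to 0.17, with adjusted p from 0.324 to 0.813. In the main edgeR fits no slope of the 4 genes was called in EPI (3.81% of all genes tested), EXMC (11.8%), VE/YE (0.145%), AM (0.843%) or Gast (0.593%). BMP4 in Gast passed by edgeR without a filter on low counts (1.67, 6.03e-06) and with at least 3 cells in a sum (1.75, 0.00460). BAMBI in EPI passed by edgeR without day 12 replicate 3 (-0.39, 0.0366). In EPI, EXMC, VE/YE, AM and Gast, DESeq2 called 1, 0, 0, 0 and 1 of the 4 genes. An unadjusted p under 0.05 in the main edgeR fits was found for 1, 0, 0, 1 and 2 of them. Over all genes tested it was found for 2204 of 11589, 2864 of 11056, 724 of 7602, 1272 of 10317 and 1021 of 10288. AM was measured only at days 12 and 16 and Gast only at days 14 and 16. The AM cells were E-AM at day 12 and L-AM1 or L-AM2 at day 16. The Gast cells were E-Gast at day 14 and L-Gast1 or L-Gast2 at day 16. In these 2 families a slope with day cannot be told apart from a change of label.

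**Figure D4:**
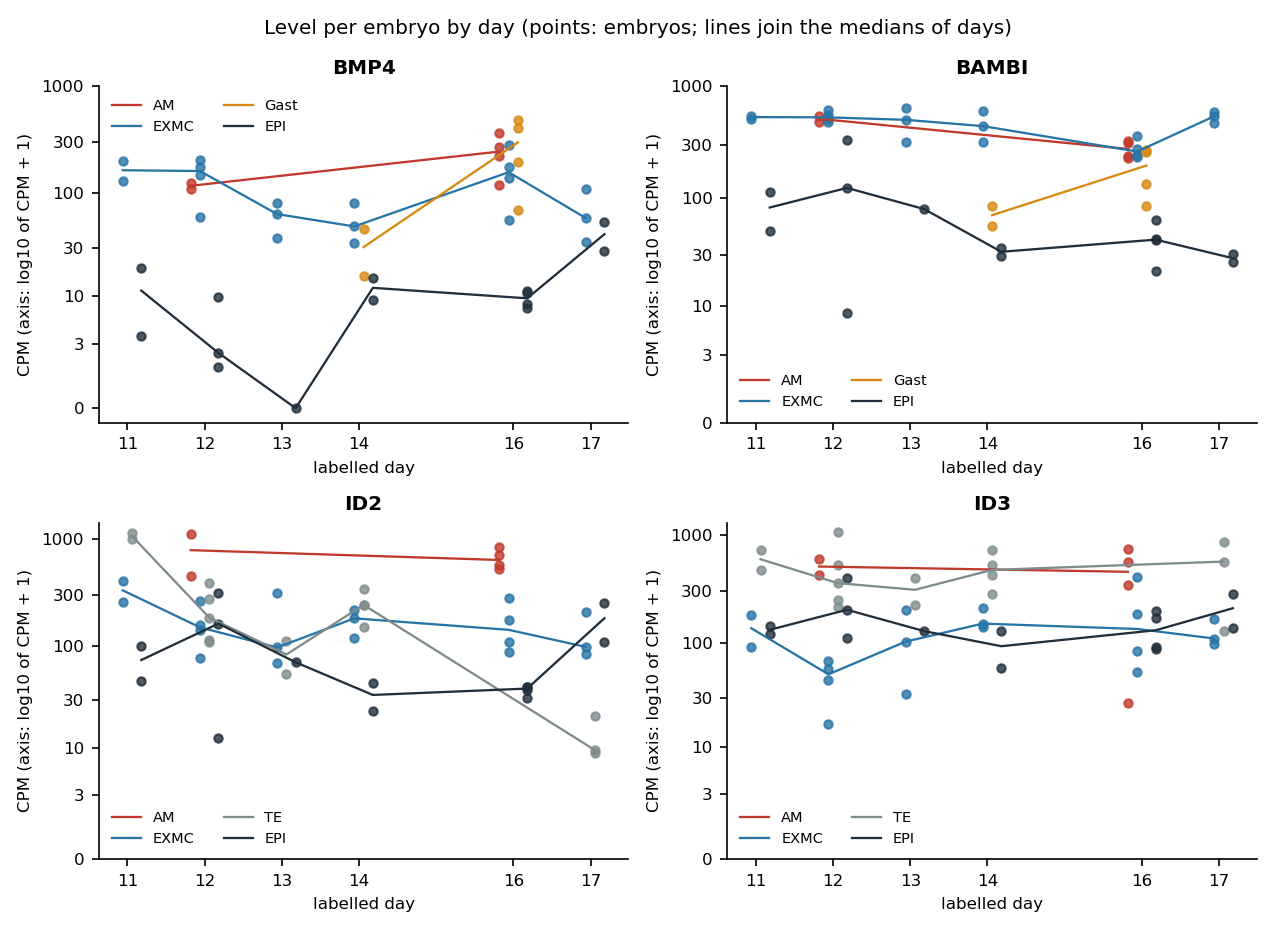
CPM of the 4 genes in sums of 1 embryo and family against the labelled day. ID2 in TE was 1011 and 1137 CPM at day 11 and 9.00 to 20.9 at day 17.

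Single cells with and without a BMP4 count, thinned alike, were compared within a family for the other 3 genes. An embryo entered where it held at least 5 cells of each kind. No embryo did so in AM, Gast, PGC or VE/YE and only 1 in TE, so these families were not tested. A cell without a count at this depth may still hold the transcript, which limits what the comparison can show. In EXMC, BAMBI averaged 427 ± 165 CPM in 141 cells with BMP4 and 426 ± 186 in 145 cells without (SD over 9 embryos, exact two-sided sign-flip p = 0.938). ID2 averaged 144 ± 102 and 161 ± 58.4 CPM (exact p = 0.254) and ID3 121 ± 63.2 and 126 ± 76.1 (exact p = 0.992). In EPI, BAMBI averaged 28.3 CPM in 32 cells with BMP4 and 33.9 in 79 cells without (5 embryos, exact p = 0.875), ID2 averaged 116 and 62.8 CPM (exact p = 0.375), and ID3 166 and 146 (exact p = 0.75). No difference passed the test, and all 6 adjusted p were 0.992. With 5 embryos the smallest p the test allows is 0.0625, so EPI could not reach 0.05.

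The other genes of the pathway were taken from a list of 56 ligands, receptors, effectors, antagonists, inhibitors and targets, of which 53 had a row. Against EPI, 4 rose and 0 fell of 25 tested in AM, 12 and 6 of 27 in EXMC, 3 and 0 of 32 in Gast, 0 and 0 of 26 in PGC, 4 and 1 of 22 in VE/YE, and 13 and 5 of 29 in TE. Over all genes tested, the called share was 5.12% in AM, 34.8% in EXMC, 1.01% in Gast, 3.93% in PGC, 23.2% in VE/YE and 46.8% in TE. The list's median log2 difference was 0.20 in AM, 0.49 in EXMC, 0.69 in Gast, -0.30 in PGC, 0.47 in VE/YE and 0.41 in TE, beside -0.10, -0.07, -0.08, -0.31, -0.10 and 0.07 over all genes tested.

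Among ligands, BMP2, which signals through the same receptors as BMP4, averaged 191 CPM in EXMC and 4.97 in EPI (log2 difference 5.72 ± 0.43, edgeR adjusted p = 8.52e-09). It was also higher in VE/YE (127 CPM, and 2.81 in EPI, 5.51, 3.24e-06) and Gast (74.3 CPM, and 2.55 in EPI, 4.52, 0.00496). BMP5 averaged 149 CPM in EXMC and 4.91 in EPI (5.06 ± 0.46, 9.30e-08). AM held less of both than EXMC, at 10.7 CPM of BMP2 in AM and 163 in EXMC (-4.28, 5.45e-04), and 7.20 CPM of BMP5 in AM and 259 in EXMC (-5.78, 1.50e-05). Of the 3 listed ligands tested between AM and EXMC, 2 were lower in AM and 1 did not pass.

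Among receptors, TE held more ACVRL1, a type I receptor (311 CPM, and 17.3 in EPI, 4.26 ± 0.27, 1.86e-08), and more of the co-receptor ENG (180.3 CPM, and 16.4 in EPI, 3.56 ± 0.48, 3.30e-05). AM held more BMPR2, a type II receptor (0.94 ± 0.23, 0.0249). RGMA, a BMP co-receptor, was lower in EXMC (-3.22 ± 0.54) and TE (-2.84 ± 0.53). Among secreted antagonists, 5 of 6 tested were higher in TE, with the largest change in FSTL3 (82.6 CPM, and 4.69 in EPI, 4.65 ± 0.45, 1.31e-06). CER1, which also stands in the list of VE/YE markers, was higher in VE/YE (269 CPM, and 0.331 in EPI, 8.81 ± 0.45, 3.20e-10), FST was higher in Gast (1.68 ± 0.19, 7.66e-04) and lower in VE/YE (-1.64 ± 0.54, 0.0363), and TWSG1 was higher in EXMC (2.64 ± 0.15, 2.42e-11). The inhibitory SMAD6 was higher in AM (2.07 ± 0.56, 0.0393) and TE (2.72 ± 0.52, 5.17e-04).

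Among other targets, HEY1 was higher in AM (129 CPM, and 2.83 in EPI, 5.70 ± 0.69, 9.48e-05). It also stands in the list of AM markers. ID1 was higher in AM than in EPI (397 CPM, and 222 in EPI, 0.88 ± 0.22, 0.0249) and than in EXMC (397 CPM, and 78.1 in EXMC, 2.74 ± 0.55, 0.0128). In EXMC it was below EPI in 13 of 13 embryos (65.5 CPM, and 181 in EPI, -1.60 ± 0.33, edgeR adjusted p = 0.00102), a gene outside the 10 largest changes that was named after its value was seen. ID4 was lower in EXMC (-1.73 ± 0.61, 0.0307) and TE (-4.85 ± 0.83, 2.11e-04). MSX2, a homeobox target, was higher in TE (3.47 ± 0.83, 0.00410) and in AM than in EXMC (2.83 ± 0.73, 0.0248).

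**Figure D5:**
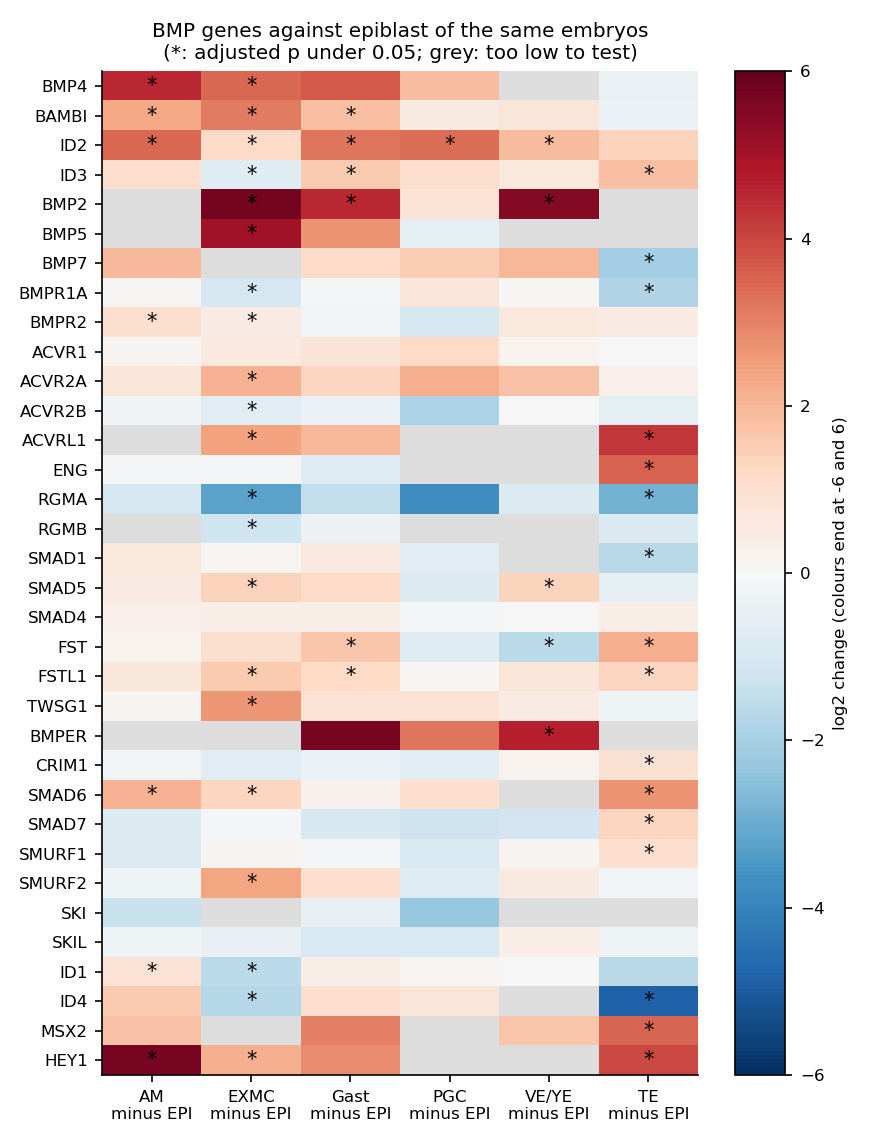
Log2 differences from EPI for the 4 genes and for the list genes shown, each tested in at least 3 of the 6 comparisons, with colours ending at -6 and 6, an asterisk for an adjusted p under 0.05 and grey for not tested. BMP4 is 4.53 in AM and 3.45 in EXMC, and ID1 is 0.88 in AM and -1.60 in EXMC.

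With day, 5 list genes rose and 6 fell of 34 tested in TE (14.9% of all genes called), among them NOG, a secreted BMP antagonist (1.37 ± 0.28 log2 units per day, edgeR adjusted p = 0.00563), ID1 (0.54 ± 0.09, 0.00104) and MSX2 (-0.61 ± 0.10, 0.00104). In EXMC 4 rose and 0 fell of 35, a share near the 11.8% of all genes called, among them NBL1 (0.62), BMP7 (0.60) and BMP5 (0.43). In EPI FST rose (0.55) and ACVRL1 fell (-0.87) of 28 tested (3.81% of all genes called), and in Gast BMP5 (4.55) and BMPER (2.62) rose of 30 tested (0.593%). The labels of the Gast cells changed along with the day.

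Likeness was described by Pearson's r of log2(CPM + 1) over all 73 sums and 14068 genes. These points share embryos and libraries, so r carries no p. The genes most like BMP4 were MEIS1 (0.77), HAND1 (0.73), MEIS2 (0.73), COL5A1 (0.69) and TENM4 (0.69). Of the other 3 genes, BAMBI reached 0.69 with BMP4, ID2 0.32 and ID3 -0.18. BAMBI was most like MEIS2, HOXA13, LAMA2 and HAND1 (each 0.71) and ADAMTS6 (0.70). ID2 was most like TBX3 (0.61), KRT19 (0.54), ATG10 (0.53), SMAD6 (0.53) and LAMA1 (0.51), and ID3 most like PHOSPHO2 (0.67), UBE2D1 (0.64), EPB41L3 (0.64), SNX10 (0.63) and VAMP8 (0.63).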

How the data were processed

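Single-cell RNA of 21 embryos was measured as counts of 3′ ends per gene. The authors deposited whole-number counts in 1 table with an annotation per cell. STAR was used per the submitters' processing notes, while no source used here names the build, the counter or any collapsing to molecules. Cell columns were matched to embryos by name, and 0 columns were left unmatched. Of 16890 LOC rows, 3273 received a symbol from RefSeq's gene table, through which BMP5, ENG, SMAD1, SMAD9 and TWSG1 were read. No 2 cells held identical values.

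The 4 genes, the gene lists and the tests were chosen with earlier results of these data known. Named were the 4 genes, list genes with an adjusted p under 0.05 (at most 10 per comparison, largest change first) and the 5 genes most like each of the 4. Marker lists covered the 7 families, endothelium and blood. In TE the endothelium list summed to 578 to 1984 CPM at day 17. On earlier days it ran from 357 CPM (day 12 replicate 5) to 1598 CPM (day 13 replicate 2). Of its genes, PECAM1 and CDH5 averaged 618 and 395 CPM in TE, while KDR averaged 1.73 CPM in TE and 39.2 in EXMC. The blood list, of which HBZ and HBE1 were at 0, summed to 3.84 to 105 CPM in L-Gast2 and 0 to 1.85 in L-Gast1.

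Counts were summed per embryo and family (at least 5 cells) or label (at least 3 cells). edgeR 4.0.16 in R 4.3.3 (TMM, filterByExpr, robust quasi-likelihood fits, embryo as block, at least 3 embryos with both types, at least 6 sums for a day slope) gave 18 of 21 family pairs. AM, Gast and PGC against TE had fewer than 3 embryos. The block comes from the design, since both types come from the same embryo. DESeq2 1.42.0 was an alternative. A standard error is the log2 change divided by the square root of F. CPM are plain shares of summed counts. Exact tests used Python 3.11.15 and scipy 1.17.1, with a pseudocount of 1 CPM. Scripts were tested on simulated data. Embryos are the replicates, and cells are not. Embryo totals ran from 2540816 to 11857191 counts. Other settings tried were size factors, the filter, cell minima, stage labels, subsets of days, no block, a joint fit, day as late minus early, and each embryo left out. The list counts cover the whole list, and 1 of its genes is not reported here by name.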

Additional observations from a re-analysis of the deposited data

Results flagged for a closer look

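BMP4 in TE at day 14 had 1 embryo far from the others. Day 14 replicate 4 had 34.3 CPM (104 counts in 16 cells), while the other 3 TE sums of that day had 6.48 to 10.7 CPM. The 7 AM markers summed to 1058 CPM in that sum and to 439 to 926 in the others, and the 6 EXMC markers to 292 CPM and to 81.2 to 447. Of the AM markers, TFAP2A and GATA3 averaged more in TE (306 and 399 CPM) than in AM (190 and 201 CPM). The 6 TE markers summed to 17648 CPM in that sum and to 7598 to 16124 in the others. The part of these markers was not tested. Of 32 groups examined in this way 1 was flagged, and chance flags about 1 in 20.

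The change of ID2 with day differed between families (edgeR adjusted p = 0.0446 for day by type, with 5.7% of all genes tested called), while BMP4 (0.461), BAMBI (0.428) and ID3 (0.476) did not pass. ID2 had a slope of -0.84 log2 units per day in TE and -0.04 in EPI. The call was lost without 10 of the 20 embryos left out in turn (adjusted p 0.0511 to 0.183), namely day 11 replicates 1 and 2, day 12 replicate 3, day 13 replicate 1, day 16 replicates 1, 3 and 4, and day 17 replicates 1, 2 and 3. It was also lost with DESeq2 size factors (0.0630), at least 3 cells in a sum (0.0513) and developmental stage labels only (0.439).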

How the results depend on the processing

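For the 4 genes, 1539 values under other settings were computed. The side of the threshold was kept in 1408, while 74 lost the call and 57 gained it. The sign turned in 57 of the values, in 20 results, and 0 of these were called under either setting. All alternatives were planned before they were run, though with earlier results of these data known.

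ID3 in EXMC minus EPI (-0.75) lost its call with DESeq2 size factors (-0.74), at least 3 cells (-0.62), at least 10 cells (-0.47), developmental labels (-0.43), days 16 and 17 only (-0.18), no replicate block (-0.31) and the joint fit (-0.32), and ran from -0.87 to -0.59 leaving out 1 embryo. ID2 in EXMC minus EPI lost it without day 16 (0.77), in days 16 and 17 (1.12) and in the joint fit (1.01), range 1.02 to 1.36 leaving out 1 embryo. ID2 in VE/YE minus EPI lost it with at least 3 cells (1.70), without day 16 and in days 11 to 14 (1.21 in both) and in the joint fit (1.24), range 1.59 to 2.37. BAMBI in Gast minus EPI lost it with at least 10 cells (1.62), no replicate block (1.25) and the joint fit (1.67), range 1.62 to 1.99. In the joint fit ID2 (2.17) and ID3 (1.28) in Gast and ID2 in PGC (2.33) also lost it. BMP4 in Gast minus EPI gained the call with no replicate block (4.13, edgeR adjusted p = 0.00181), the DESeq2 test (3.69), at least 3 cells (3.58), days 16 and 17 only (4.70) and the joint fit (3.49).

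Genes called moved as follows. Without a filter, 951 were called in AM minus EPI (502 in the main fit), 391 in Gast (115), 2939 in VE/YE (1879), 1232 for day in EPI (442), 2732 in EXMC (1303), 345 in VE/YE (11), 304 in AM (87), 383 in Gast (61), 1624 for day by type (816), 83 in L-AM (6) and 233 in L-Gast (151). The DESeq2 test called 1184 in AM minus EPI, 728 in Gast, 1033 for day in EPI, 153 in VE/YE, 291 in AM, 317 in Gast, 1499 for day by type, 206 in L-AM and 334 in L-Gast. With at least 3 cells AM minus EPI had 830, and day in VE/YE 57, AM 53 and Gast 148. With at least 10 cells Gast minus EPI had 36, VE/YE 739, and day in EXMC 653 and TE 530. With developmental labels day in TE had 240 and day by type 147. Without day 16, day in EPI had 143 and EXMC 586. Days 16 and 17 gave 2030 in EXMC minus EPI and 361 in Gast. Without the replicate block Gast minus EPI had 202. The label covariate gave 25 for day in AM and could not be fitted in VE/YE and Gast. Late minus early gave 32 for day in VE/YE. The joint fit gave 1014 in AM, 299 in Gast, 720 in PGC (409) and 4302 in VE/YE. Leaving out 1 embryo gave 258 to 584 in AM minus EPI, 29 to 179 in Gast, 34 to 215 in L-Gast, 484 to 868 for day by type, 275 to 503 for day in EPI, 1052 to 1892 in TE and 0 to 123 in VE/YE. PGC and L-AM pairs and the AM and Gast day fits were not refitted this way, since too few embryos were left.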
